A study of Homo sapiens with 4 samples.

Results

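Oxidative phosphorylation is carried out by 5 protein complexes of the inner mitochondrial membrane, and its subunits are encoded by both the mitochondrial and the nuclear genome. Members were chosen by gene symbol: the MT-ND, MT-CO, MT-CYB and MT-ATP genes, and nuclear symbols beginning NDUF with A, B, C, S or V and a number, SDHA to SDHD, UQCR, CYC1, COX5 to COX8 with A, B or C, and ATP5, with pseudogenes left out. This gave 94 of the 19775 genes in the table, 13 encoded by mitochondrial DNA and 81 by the nucleus. The symbols also take in 4 nuclear genes that do not encode a subunit (ATP5S, ATP5SL, COX7A2L and UQCRHL), which are kept apart below, and leave out the subunit genes COX4I1 and NDUFAB1, which are given with the other respiration genes.

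H1 is an established cell line of human embryonic stem cells, here of wild-type genotype and kept in E8, a defined medium with insulin, FGF2 and TGFβ. The libraries described here are the 2 of cells that received 1 µM XMD892, an inhibitor of the kinase ERK5, for 12 h, called replicate 1 and replicate 2. The series also has 2 samples of cells in E8 without the compound, which were not analysed here; each value is thus a level in treated cells or a difference between treated libraries, and none measures what the compound did. It is not stated in the labels whether the libraries came from separate cultures, and their spread may be technical. In bulk RNA, fewer cells of a type and less RNA per cell cannot be told apart.

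The libraries held 18528689 and 20217648 reads. Levels are RPKM, the reads of a gene scaled by the length of its merged exons and by all listed reads of the library, and means are given ± SD over the 2 libraries. Libraries were compared on log2(normalized count + 1), always as replicate 2 minus replicate 1, for genes whose normalized count averaged 10 or more; differences of low genes are understated on this scale. Intervals of a difference are exact Clopper-Pearson 95% intervals on the reads and cover counting error only. With a single library on each side, a difference has no replicate check and no p-value. All 8 pluripotent stem cell markers examined, POU5F1, SOX2 and NANOG among them, exceeded 1 RPKM in both libraries, and 0 of 3 endoderm markers (SOX17, FOXA2, GATA6) were listed. They did not share a side: 4 were higher in each library, from POU5F1 with 39373 and 83719 reads to SALL4 with 2977 and 1669. Of the neural markers PAX6, SOX1, NES and MAP2, 3 were listed and 1, NES, reached 1 RPKM in both libraries, as did none of the trophoblast markers CDX2, GATA3, KRT7 and TFAP2A.

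Complex I takes electrons from NADH and complex II from succinate. Complex III passes them to cytochrome c, and complex IV, cytochrome c oxidase, hands them to oxygen. Complexes I, III and IV pump protons, and complex V, the ATP synthase, uses the resulting gradient to make ATP. Mitochondrial DNA encodes core membrane subunits of complexes I, III, IV and V and none of complex II. It is transcribed as long precursors of both strands that are cut apart, largely at the tRNAs, and most of the messenger RNAs receive a short poly(A) tail. Human pluripotent cells are known to rely strongly on glycolysis while keeping a working respiratory chain.

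The ends of the mitochondrial reading frames are described here from the annotation, and whether they relate to the levels was not examined. In GENCODE release 29 (GRCh38), 6 of the 13 open reading frames end within a codon, 5 on a single T and 1 on TA, so that the poly(A) tail supplies the rest of the stop codon. The other 7 carry a complete stop: TAA in 3, TAG in 2, and AGA and AGG in 1 each. The last bases of the 6 incomplete reading frames and of 3 complete ones are shown 5′ to 3′, with the bases of the stop codon that DNA encodes in capitals.
MT-ND1: ccccctcaaaccTA
MT-ND2: ctaataatcttaT
MT-CO3: tgatgagggtctT
MT-ND3: gactgaaccgaaT
MT-ND4: gggttttcctctT
MT-CYB: ctcaaatgggccT
MT-CO1: ataaaatctAGA
MT-CO2: tttaccctaTAG
MT-ND6: cgggggaatAGG

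Some of these genes share bases. MT-ATP8 and MT-ATP6, which lie on one message, overlap by 46 bases at chrM:8527-8572 (plus strand), 22.2% of MT-ATP8 and 6.75% of MT-ATP6. MT-ND4L and MT-ND4 overlap by 7 bases at chrM:10760-10766 (plus strand). The shared bases are shown with the start codon of the downstream gene and the stop codon of the upstream gene in capitals.
MT-ATP8 and MT-ATP6: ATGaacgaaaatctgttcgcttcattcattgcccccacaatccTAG
MT-ND4L and MT-ND4: ATGcTAA

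Messages of the mitochondrial genome exceeded those of the nuclear genome throughout. The 13 mitochondrially encoded genes took 4.81% of the reads in replicate 1 and 5.34% in replicate 2, and the 81 nuclear genes took 0.845% and 1.04%. Of all reads on the 94 genes, 84.4% ± 0.932 (SD, n = 2) were on mitochondrial genes. The per-library median level was 2768 ± 444 RPKM for mitochondrial genes and 32.2 ± 7.54 RPKM for nuclear ones. These groups did not overlap: the lowest mitochondrial gene lay 1.59-fold above the highest nuclear gene in replicate 1 and 1.77-fold above it in replicate 2. Over all listed genes with a length, the mean RPKM had a median of 2.32. The RNA was selected on poly(A), and whether messages of both genomes were captured equally well was not tested.

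**Figure D1:**
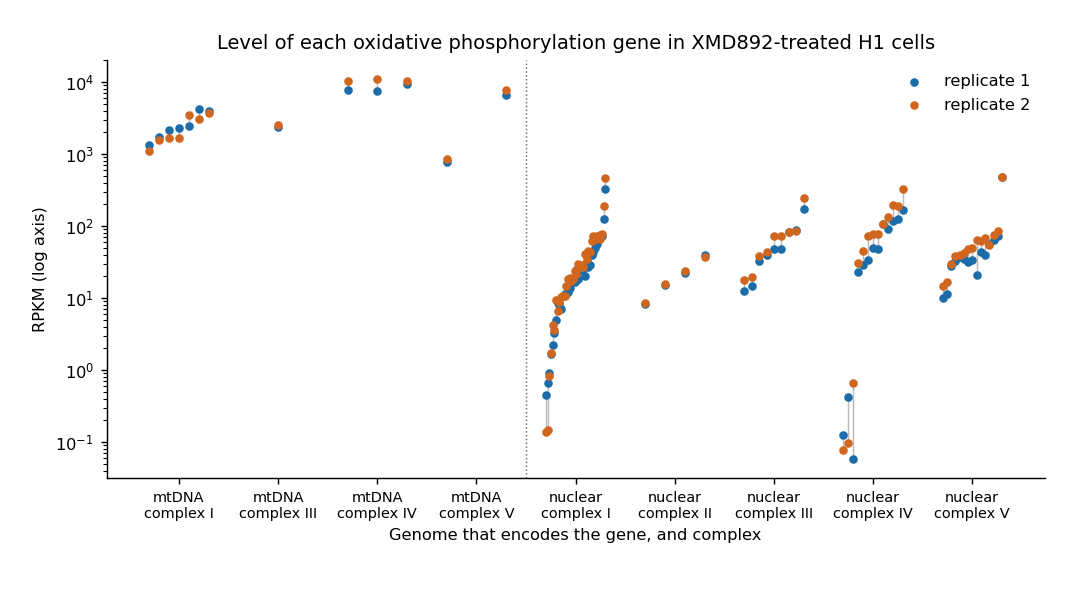
RPKM (log axis) of each of the 90 subunit genes in replicate 1 (blue) and replicate 2 (orange), grouped by the genome that encodes it and by complex, with a grey line joining a gene's values. The 13 mitochondrial genes sit above every nuclear gene, and 6 nuclear genes lie under 1 RPKM in both libraries.

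The messages for the catalytic core of complex IV were the highest. MT-CO1, which carries the oxygen-reducing centre, stood at 9258 RPKM in replicate 1 and 10423 in replicate 2. MT-CO3, the third core subunit, had 7426 and 11018 RPKM, and MT-CO2, which receives electrons from cytochrome c, had 7684 and 10368. The order of these 3 genes differed between the libraries, so they cannot be ranked beyond their spread. Together they took 52.7% of the mitochondrial protein-gene reads in replicate 1 and 59.6% in replicate 2. MT-ATP6, the proton channel subunit of ATP synthase, followed at 6676 and 7705 RPKM, below all 3 in each library.

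The 7 mitochondrial genes of complex I, which form its proton-pumping arm, were lower, between 1107 and 4156 RPKM. MT-ND4 had 3954 and 3686 RPKM and MT-ND4L 4156 and 3082, and these neighbours on one message changed order between the libraries. MT-ND3 had 2455 and 3498 RPKM. MT-ND1, at 2181 and 1660, and MT-ND2, at 2271 and 1645, were close to each other in both. MT-ND5 was the lowest of the 7 at 1349 and 1107 RPKM, and MT-CO1 exceeded it by 8.14 ± 1.81-fold (SD, n = 2). MT-CYB, the single mitochondrial subunit of complex III, had 2399 and 2484 RPKM.

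MT-ND6 is the one protein gene on the other strand of the genome. MT-ND6 stood at 1738 and 1585 RPKM, higher than MT-ND5 in both libraries. The RNA was selected on poly(A) and the tails of the messages were not measured, so this is an order of captured RNA only. Whether reads were counted by strand is not stated. Without strand, the reads of MT-ND6 cannot be told apart from those of transcripts that run across it from the opposite strand. MT-ATP8 was the lowest mitochondrial gene at 764 and 853 RPKM, on 2929 and 3571 reads, and MT-ATP6 on the same message was 8.89 ± 0.203-fold higher. MT-ATP8 is 207 bases long and shares the 46 bases shown above, so the ratio within that message depends on how reads across both genes were assigned.

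Between the libraries the mitochondrial genes did not move as a block. Replicate 2 was higher for 7 and replicate 1 for 6 of the 13, a split that stayed at 7 and 6 under every scaling tried, and 0 reached a 2-fold gap, against 10.9% of all 16148 genes compared. The counting interval excluded equal levels for 12 of the 13, all but MT-ND4, against 58.1% of all genes; at these read numbers that interval is very narrow. The median difference was 0.15, against 0.02 over all genes. With each gene set against the median of protein-coding genes of similar annotated length it was -0.19, so its sign depends on that choice.

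On the authors' size factors, signs differed by complex. All 3 complex IV genes were higher in replicate 2, by 0.27 for MT-CO1, 0.53 for MT-CO2 and 0.67 for MT-CO3, as were both complex V genes, by 0.31 for MT-ATP6 and 0.26 for MT-ATP8, and MT-CYB by 0.15. Of the 7 complex I genes only MT-ND3 was higher in replicate 2, by 0.61. MT-ND2 and MT-ND4L were higher in replicate 1, with differences of -0.36 and -0.33, and MT-ND1 at -0.29 and MT-ND5 at -0.18 lay on the same side. MT-ND6 at -0.03 was near 0. In genome order, the 6 consecutive genes from MT-CO1 to MT-ND3 were all higher in replicate 2, with the pair before them and the 4 after them at or below 0, and MT-CYB, the last, above it. Set against protein-coding genes of similar annotated length, only MT-CO1, MT-CO2, MT-CO3 and MT-ND3 stayed above 0. MT-ATP6 at -0.14, MT-ATP8 at -0.19 and MT-CYB at -0.12 changed sign, so that both the run and the signs of complexes III and V depend on that choice. The annotated lengths are those of single genes, such as 207 bases for MT-ATP8, 681 for MT-ATP6 and 297 for MT-ND4L. These genes share a message with a neighbour, so their length classes are not those of the whole messages.

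**Figure D2:**
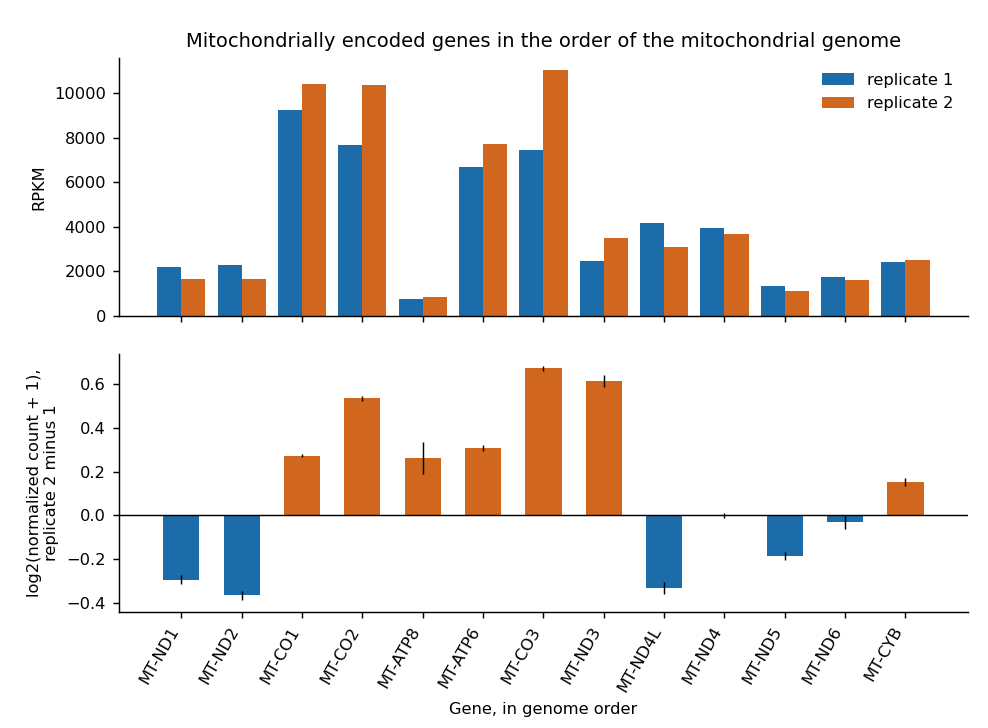
Mitochondrial protein genes in genome order: the upper panel gives RPKM in replicate 1 (blue) and replicate 2 (orange), the lower panel the difference of log2(normalized count + 1), replicate 2 minus replicate 1, with 95% counting intervals. The bars from MT-CO1 to MT-ND3 are above 0, up to 0.67 at MT-CO3, and MT-ND1 and MT-ND2 are at -0.29 and -0.36.

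Near-copies of mitochondrial genes in the nuclear genome can take or give reads. The block on chromosome 1 was listed with MTATP6P1 at 3758 and 2437 reads, MTCO1P12 at 911 and 898 and MTND2P28 at 49 and 52. MTATP6P1 (chr1:633696-634376, GRCh38) differed from MT-ATP6 at 10 of 681 aligned bases, an identity of 98.5%, and the longest identical stretch was 141 bases. Its reads came to 4.46% of those of MT-ATP6 in replicate 1 and 2.30% in replicate 2, and its difference of -0.65 was opposite in sign to that of MT-ATP6. MTCO1P12 was 98.7% identical to MT-CO1 and held 0.344% and 0.276% of its reads. With all nuclear copies counted in, the mitochondrial share of reads was 5.10% in place of 5.08%. Of the RNAs that mitochondrial DNA encodes besides its protein genes, the large ribosomal RNA MT-RNR2 was the highest, at 66815 and 106849 reads. The small ribosomal RNA MT-RNR1 had 11516 and 12856. Since the RNA was selected on poly(A), these reads do not measure how much of the ribosomal RNAs the cells held.

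Among nuclear genes, complex I has the most members, 36 by these symbols, of which 33 reached 1 RPKM in both libraries. NDUFS5, a small accessory subunit, was the highest at 329 and 457 RPKM (3339 and 5066 reads; chr1:39026318-39034636, plus strand). NDUFB7, another accessory subunit, followed at 125 and 190 RPKM, and NDUFS6, which binds zinc, at 73.4 and 77.1. The accessory subunit NDUFB10, at 74.1 and 66.5 RPKM, lay above NDUFS6 in replicate 1, so the order below NDUFB7 differed between the libraries. The 7 core subunits, which hold the NADH site and the iron-sulfur clusters, were lower than these 4: NDUFV1, the NADH-binding subunit, had 24.6 and 21.6 RPKM, and NDUFS1, the largest, had 11.4 and 10.6. The core subunits had a median of 16.5 RPKM and the 29 accessory ones 26.1. Merged exon lengths understate genes with long rare isoforms, such as NDUFS1 with 12268 bases, so the order of genes is approximate; the rank correlation of nuclear levels between merged exons and the longest transcript as the length was 0.955 across the 81 genes.

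Complex II, or succinate dehydrogenase, is wholly nuclear, and its 4 genes kept 1 order in both libraries, each with an SD of at most 1.29 RPKM. The membrane anchor SDHD had 39.0 and 37.5 RPKM, the iron-sulfur subunit SDHB 22.1 and 24.0, the flavoprotein SDHA 15.1 and 15.5 and the second anchor SDHC 8.23 and 8.67. In complex III, the hinge protein UQCRH was the highest at 170 and 246 RPKM (chr1:46303631-46316776, plus strand). The core protein UQCRC1 had 87.5 and 84.6 RPKM and CYC1, cytochrome c1, had 82.4 and 81.4, lower than UQCRC1 in both libraries. UQCR11 was the lowest subunit at 12.7 and 18.1 RPKM. UQCRHL, a near-copy of UQCRH elsewhere on chromosome 1, had 75 and 88 reads against 4444 and 6995 for UQCRH, and reads can be split wrongly between them.

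The nuclear genes of complex IV encode small subunits around the mitochondrial core. NDUFA4 and NDUFA4L2 are placed with them here, since the NDUFA4 protein is now known as a subunit of complex IV. COX8A was the highest at 168 and 324 RPKM (1575 and 3324 reads; chr11:63974607-63976543, plus strand). COX7C followed at 126 and 191 RPKM and COX6B1 at 119 and 196. COX5B and COX5A came next at 90.0 and 132 and at 105 and 108 RPKM. NDUFA4 itself had 48.9 and 76.6 RPKM. Of the 13 genes, 10 reached 1 RPKM in both libraries, and the other 3 are isoforms known from particular tissues or conditions.

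Those isoforms were near the floor. COX7A1, the heart and skeletal muscle form of subunit VIIa, had 8 and 2 reads, against 1712 and 3021 for the widely expressed COX7A2. COX6B2, known from testis, had 9 and 6 reads, against 2061 and 3702 for COX6B1. NDUFA4L2, a target of hypoxia-inducible factor, had 3 and 37 reads. Its difference of 3.25 had a counting interval from 1.94 to 5.94 and rests on 3 reads in replicate 1. The muscle form COX6A2, the testis forms COX7B2 and COX8C, and COX4I2 were not listed. COX7A2L, a factor of respiratory supercomplexes, had 14.8 and 17.5 RPKM. Muscle markers were at the same floor: of 4, TNNT2 and ACTN2 were listed, both under 1 RPKM.

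ATP synthase held the highest nuclear gene. ATP5B (now ATP5F1B), the catalytic beta subunit of the F1 head, had 479.9 and 482 RPKM on 20647 and 22607 reads (chr12:56638175-56646068, minus strand). Its partner ATP5A1 (ATP5F1A), the alpha subunit, had 71.7 and 84.8 RPKM, and the gamma subunit ATP5C1 (ATP5F1C) had 64.1 and 75.1. Alpha and beta subunits are present in equal number in the enzyme. Their reads, 14492 and 18696 against 20647 and 22607, lay nearer than their RPKM, because the merged exons of ATP5A1 come to 10908 bases and those of ATP5B to 2322. The epsilon subunit ATP5E (ATP5F1E) was the lowest of the 15 at 9.93 and 14.9 RPKM.

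Subunit c, which forms the rotating ring, is made from 3 nuclear genes whose mature proteins are identical and whose import signals differ. ATP5G2 (ATP5MC2) had 40.0 and 68.2 RPKM, ATP5G3 (ATP5MC3) 35.0 and 42.5, and ATP5G1 (ATP5MC1) 28.2 and 29.8. The order was the same in both libraries, and ATP5G2 and ATP5G3 differed by less than the spread of ATP5G2. In reads ATP5G3 led in both, with 4393 and 5830 against 2955 and 5501 for ATP5G2, so the order of these 2 is that of levels per length and not of reads. The inhibitor of ATP synthase, listed under its older symbol ATPIF1 and outside the member rule, stood at 38.1 ± 1.80 RPKM; it was looked up after the values were seen. The small subunits USMG5 (ATP5MK) and C14orf2 (ATP5MJ), also listed under older symbols, had 1108 and 1842 and 1051 and 1671 reads.

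Several complex I genes had few reads for genes that all respiring cells use. NDUFV2, a core subunit, had 33 and 8 reads, NDUFA7 had 12 and 4, NDUFA13 had 46 and 46, and NDUFA9 had 317 and 368. These genes share a feature of the annotation. In GENCODE release 29, 84.7% of the coding bases of NDUFV2 lie within exons of another gene on the same strand, a readthrough or overlapping model, as do 78.3% for NDUFA7, 55.2% for NDUFA13 and 67.9% for NDUFA9. Of the 81 nuclear genes, 12 had more than 50% of their coding bases overlapped in this way, with a median of 7.98 RPKM, against 35.7 RPKM for the other 69. Of the 6 nuclear genes under 1 RPKM, 4 were overlapped ones (NDUFV2, NDUFA7, NDUFA13 and COX6B2), and the other 2 were COX7A1 and NDUFA4L2. Other overlapped genes were not low: COX8A (55.1%) had a mean of 246 RPKM, COX6A1 (53.5%) 53.1, ATP5L (56.5%) 41.5, UQCR11 (100%) 15.4 and ATP5O (62.6%) 14.1. NDUFC2 (76.9%) at 8.73 and NDUFB8 (85.2%) at 7.22 lay between. The gene with the largest overlap was itself listed for NDUFA13 (AC011448.1, with 11 and 5 reads). For the other overlapped genes, NDUFV2, NDUFA7 and NDUFA9 among them, that gene was not listed. Read counters commonly set aside reads that fall on more than one gene. Which annotation and setting made the table is not stated, and the part of the overlap in these low levels was not tested. The low values are levels as listed.

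**Figure D3:**
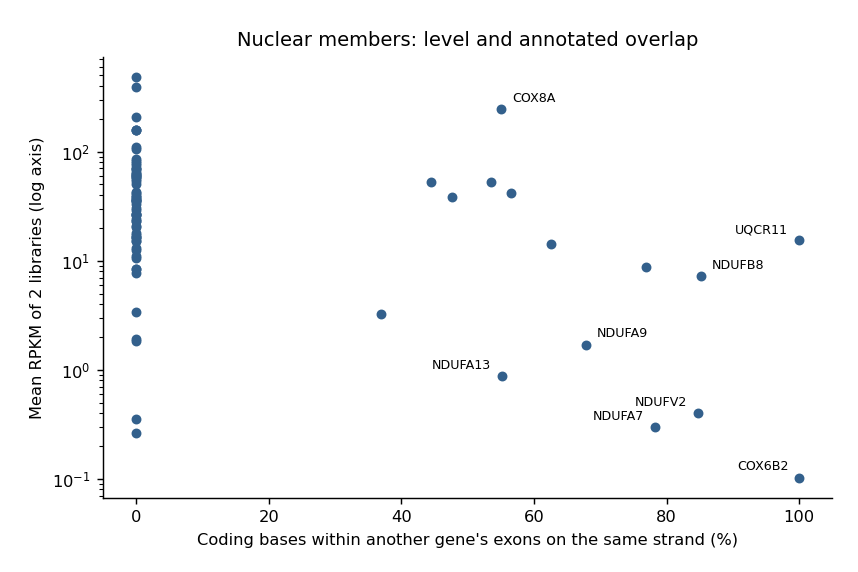
Mean RPKM of the 2 libraries (log axis) for the 81 nuclear genes against the percentage of their coding bases that lie within exons of another gene on the same strand in GENCODE release 29. NDUFV2 (84.7%) and NDUFA7 (78.3%) lie under 1 RPKM, while COX8A (55.1%) is among the highest.

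The nuclear genes were, in most cases, higher in replicate 2. Of 78 genes above the minimum, 71 were higher there and 7 in replicate 1, against 52.1% of all genes higher in replicate 2. The median difference was 0.43, with quartiles of 0.18 and 0.70, against 0.02 over all genes. With total reads as the scale, which moved the median of all genes to -0.08, 65 of the 78 were higher in replicate 2 and the median was 0.33. The libraries were 2-fold or more apart for 8 of the 78, or 10.3%, which is near the 10.9% of all genes; 7 of these 8 were higher in replicate 2, where 4.76% of all genes were. With total reads as the scale 4 of the 78 reached 2-fold, 3 of them higher in replicate 2, while 11.2% of all genes were 2-fold apart on that scale. The 3 genes below the minimum were NDUFA7, COX7A1 and COX6B2.

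Among genes with more reads than NDUFA4L2 and NDUFV2, the largest gaps were in small subunits. ATP5I (ATP5ME), a membrane subunit, had 368 and 1223 reads, a 3.26-fold difference with a log2 interval from 1.54 to 1.88. COX6A1 had 839 and 1971 reads (2.31-fold), NDUFA2 564 and 1214 (2.11-fold), COX8A 1575 and 3324 (2.07-fold) and NDUFB8 183 and 384 (2.06-fold). NDUFA11 at 1.02 lay just inside the 2-fold line, and ATP5G2 at 0.87 and NDUFS4 at 0.84 were the nearest outside it. The coding bases of NDUFB8, COX6A1 and COX8A are among those overlapped by another gene, and 44.0% of those of ATP5I lie opposite exons of MYL5. Without the 12 overlapped genes, 4 of 68 (5.88%) reached 2-fold, against 10.9% of all genes, and the median difference was 0.35.

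At the other end, ATP5S at -0.32 and NDUFV3 at -0.28 were higher in replicate 1, and neither interval reached 0. NDUFV1 at -0.08, NDUFB10 at -0.06 and NDUFS1 at -0.00 had intervals that included 0. NDUFV2 had the one gap above 2-fold toward replicate 1, where 6.14% of all genes had one, with a difference of -1.95 on 33 and 8 reads and an interval from -3.39 to -0.93.

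The difference went with the role of the subunit and with the length of its transcript. The 20 core and catalytic genes (the complex I core, succinate dehydrogenase, the redox and core proteins of complex III and the F1 head) had a median difference of 0.19, and the 54 other subunits above the minimum had 0.64. In complex I the core had a median of 0.11 and the accessory subunits 0.55. In complex III the values were 0.16 for CYC1, UQCRFS1, UQCRC1 and UQCRC2 and 0.63 for the 5 small subunits. All 11 complex IV genes above the minimum were higher in replicate 2, with a median of 0.75, and the 4 complex II genes had a median of 0.15. These role groups were formed after the values were seen and carry no test.

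The groups also differ in length: the longest annotated transcript had a median of 2296 bases for the 20 core and catalytic genes and 1256 for the other subunits. Across the 78 nuclear genes, Spearman's rho between the difference and that length was -0.452, and across all 13455 tested protein-coding genes it was -0.236; these are descriptions across genes, which are not independent. Protein-coding genes whose longest transcript has at most 750 bases had a median difference of 0.45, and those over 5000 bases had -0.07. The nuclear oxidative phosphorylation genes lay above the median of their length class in 60 of 78 cases, with a median excess of 0.25. On that scale 3 of the 78 were at least 2-fold apart, and the share of all genes was not computed. For the core and catalytic genes this excess was 0.04 and for the other subunits 0.35. Length thus moved with the difference and with the role, and its part in either was not tested beyond this.

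**Figure D4:**
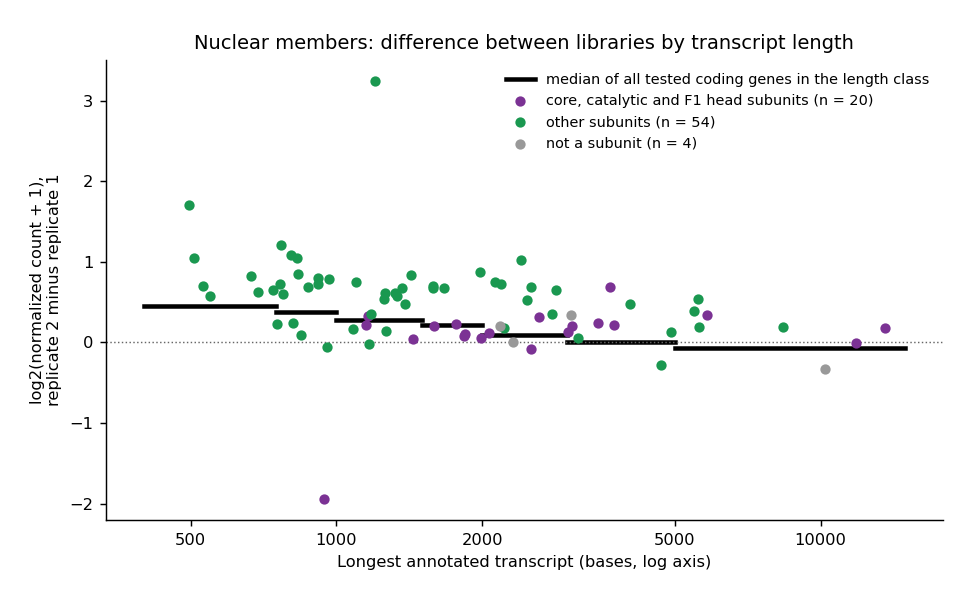
Difference of log2(normalized count + 1), replicate 2 minus replicate 1, for the 78 nuclear genes above the minimum, against the length of the longest annotated transcript (log axis); black bars give the median of all tested protein-coding genes in each length class. The bars fall from 0.45 to -0.07, and most subunits outside the core and catalytic genes (green) lie above them. NDUFA4L2 at 3.25 and NDUFV2 at -1.95 stand apart on few reads.

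Promoters of nuclear respiration genes are known for sites of NRF1, of the ETS factor GABPA (also named NRF2) and of YY1. In RefSeq (GRCh38.p14), 64 of the 81 nuclear genes had a promoter entry, and the 250 bases before the first listed start were searched on both strands. The NRF1 core (GCGCA, any base, GCGC) was found in 13 of the 64 (20.3%), against 5.53% of all promoters and 10.1% of those of tested protein-coding genes. The ETS core, CCGGAAGT, was found in 9 (14.1%), against 3.64% and 6.88%. The YY1 core, AAGATGGC, was found in 1 (1.56%), against 1.37% and 1.72%. Of the other letters searched, the SP1 core GGGGCGGGG was found in 9 (14.1%), against 15.4% and 27.8%. TATAAA was found in 6 (9.38%), against 11.1% and 5.15%, and CACGTG in 6 (9.38%), against 6.49% and 8.86%. SDHD and UQCR11 held both the NRF1 and the ETS core. These matches are descriptions of the letters and not measured sites. For each complex, the highest member with an NRF1 or ETS match is shown as 30 bases around the match nearest the start, on the plus strand, with the match in capitals.
NDUFB4, NRF1, chr3:120596263-120596292: ctctgctaacGCGCAGGCGCacttcctgaa
SDHD, NRF1, chr11:112086753-112086782: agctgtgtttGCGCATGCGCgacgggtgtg
SDHD, ETS, chr11:112086784-112086813: accgcctctcgACTTCCGGttcacccagca
UQCRH, ETS, chr1:46303640-46303669: gagtgtgccgcACTTCCGGccagatcgccg
COX8A, ETS, chr11:63974590-63974619: ccagctccagaACTTCCGGccagcgcagcc
ATP5C1, NRF1, chr10:7788145-7788174: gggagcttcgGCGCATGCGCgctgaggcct

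The match nearest the RefSeq start lay 11 bases before it in COX8A, 12 in ATP5C1 and 100 in SDHD for NRF1. The GENCODE gene starts of UQCRH, ATP5C1, SDHD and COX8A lie further upstream than these RefSeq starts. Against them, the UQCRH and ATP5C1 matches and the SDHD ETS match lie within the gene, and the COX8A match crosses the start. Tested members with an NRF1 match had a median difference between the libraries of 0.33 (13 genes) and those without had 0.52 (49 genes); for the ETS core the medians were 0.63 (9 genes) and 0.35 (53 genes). The factors themselves were listed in both libraries: NRF1 had 6.74 and 6.08 RPKM and GABPA 7.46 and 8.93, and YY1 had 19.7 ± 1.88 (SD, n = 2). The nuclear receptor ESRRA, another regulator of respiration genes, had 19.7 and 16.3 RPKM. The coactivator PPARGC1A, which drives mitochondrial biogenesis in muscle and brown fat, had 0.109 and 0.123 RPKM on 22 and 27 reads. Its relative PPARGC1B had 560 and 298 reads. Of the 10 regulators examined, 7 were higher in replicate 1, with a median difference of -0.13 and 1 at 2-fold.

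Other genes of the pathway had smaller median differences than the subunits outside the core and catalytic genes, a group formed after the values were seen. Those subunits had a median of 0.64, and the core and catalytic genes 0.19. The median longest transcript also differed, at 1256 bases for those subunits, 1373 for the other subunits and carriers and 2018 to 2394 for the assembly factors. The contrast was not tested. Subunits and carriers outside the symbol rule stood near the members: the electron carrier CYCS (cytochrome c) at 81.6 ± 6.65 RPKM, the acyl carrier NDUFAB1 at 65.8 and 72.0 and COX4I1 at 55.9 ± 8.22 RPKM (SD, n = 2). Their differences were -0.07, 0.23 and 0.40. The 15 complex I assembly factors all had at least 1 RPKM in each library; their median difference was 0.06 and 0 were at 2-fold. Of the 21 complex IV assembly factors, replicate 2 was higher for 13, with a median of 0.20, and for the 3 of complex V the median was 0.05. The 10 factors for complexes II and III had a median of 0.22, and SDHAF4, with 159 and 330 reads, was the single one at 2-fold.

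Genes that copy and express mitochondrial DNA were divided. Of 19 listed, 12 were higher in replicate 1 and 7 in replicate 2, the median difference was -0.11 and 0 reached 2-fold. The packaging and transcription factor TFAM had 24.4 and 20.3 RPKM, the RNA polymerase POLRMT 27.8 and 28.8, and LRPPRC, which stabilizes mitochondrial messages, 32.8 and 26.9. SLIRP, the small partner of LRPPRC, had 29.7 and 47.2 RPKM, the largest gap toward replicate 2 of the 19. Among 9 mitochondrial translation factors the elongation factor TUFM was the highest at 134 and 104 RPKM, and the median difference was 0.04. With total reads as the scale, all differences here move down with the median of all genes.

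Glycolysis and low-oxygen genes were higher in replicate 2 as well, in 15 of 20 cases, against 52.1% of all genes. Their median difference was 0.49, and 5 were at 2-fold, all toward replicate 2, against 4.76% of all genes. The 5 higher in replicate 1 were GPI at -0.40, HK1 at -0.30, PFKL at -0.03, NDRG1 at -0.02 and ALDOA at -0.01. LDHA, which makes lactate, had 10148 and 21070 reads, and PDK1, a kinase that inhibits pyruvate dehydrogenase, had 367 and 989. BNIP3, a receptor for the removal of mitochondria, had 1078 and 6184. NDUFA4L2 was on the same side, whereas the 4 fibroblast and mesenchyme markers listed of 8 did not share a side: TAGLN had 4515 and 423 reads, COL1A1 1429 and 196, COL1A2 1242 and 867, and THY1 3698 and 7685. Their summed share of reads was 0.0587% in replicate 1 and 0.0454% in replicate 2, and POSTN, DCN, LUM and COL3A1 were not listed. All 3 neural markers listed were higher in replicate 1: NES had 17496 and 10074 reads, MAP2 287 and 78 and SOX1 42 and 32. The part of oxygen supply or of other cells in the differences between these libraries was not tested.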

How the data were processed

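Poly(A)-selected RNA was sequenced as paired ends, per the labels. The deposited values are a signal in which the authors scaled the counts of each library by a size factor, as the values show: 100% of values in each column used were whole multiples of 1 step within 0.01 reads. Size factors of 0.932 and 0.948 and whole reads were recovered. Trimmomatic 0.36, STAR, featureCounts 1.5.3, DESeq2 1.26.0 and hg38 are named without roles, per the submitters' processing notes. Column names were matched to labels by treatment, time and replicate. In all, 7 columns of per-library values were not used, as their names matched no sample (among them a further XMD column at 12 h and E8 columns named for another time than the E8 labels give), and the planned fit of XMD892 against E8 was not run. Lengths came from GENCODE release 29 by symbol, and 16 members under other symbols were matched through RefSeq synonyms. TMM factors came from edgeR 4.0.16 in R 4.3.3, and other steps from Python 3.11.15 with pandas 2.3.3 and scipy 1.17.1. The recovery of reads, the intervals and the length classes were tested on simulated data. Named genes are all mitochondrial members, the 3 highest and the lowest nuclear member of each complex, paralog sets and the 5 largest differences in each direction; further genes are named to explain a count. The members, lists and rules were chosen with earlier results of these data known. Reads carry no molecular identifiers.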

Additional observations from a re-analysis of the deposited data

How the results depend on the processing

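No paired analysis was possible because columns of the E8 group were not used, which left a single treatment group. With reads on mitochondrial members left out of the denominator, the shares were 5.35% for mitochondrial and 0.991% for nuclear genes. These moved by less than the SD between libraries. Without 1 replicate each, the shares are those of the single libraries, 4.81% and 5.34% for mitochondrial and 0.845% and 1.04% for nuclear genes. With 2 libraries that setting always moves a mean by less than the SD, so it does not show stability. Median levels without 1 replicate ran from 2455 to 3082 RPKM and from 26.9 to 37.5 RPKM. As TPM, another unit, the medians were 9480 and 110.04, and with the longest transcript as the length the nuclear median was 47.9 RPKM. The median difference of the mitochondrial genes was 0.05002 with total reads, 0.14 with TMM and -0.19 within length classes, the one change of sign. For the nuclear genes it was 0.33 with total reads, 0.35 with no minimum, 0.475 with a minimum of 50, 0.25 within length classes and 0.35 without overlapped genes. The 8 nuclear genes at 2-fold became 4 with total reads, where 11.2% of all genes were 2-fold apart. They became 4 without overlapped genes, or 5.88%, against 10.9% of all genes. Within length classes they became 3, and the share of all genes on that scale was not computed. The alternatives on length classes, nuclear copies and overlap were chosen after seeing the data. A difference cannot be had without a replicate.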
